A study of Mus musculus with 8 samples.

Results

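The 10 transcription factor genes Snai1, Snai2, Twist1, Zeb1, Zeb2, Prrx1, Cebpb, Runx1, Stat3 and Bhlhe40 were examined in mouse glioblastoma and normal mouse brain. They were taken by name, as factors of epithelial-mesenchymal transition and of the mesenchymal class of glioblastoma, and make up 10 of 23523 features in the table. RNA was sequenced from 3 samples of normal brain and 5 glioblastomas. Each tumour had been started by a lentivirus that carried HrasG12V, an activated oncogene, together with an shRNA against p53, and was taken when the mouse reached its clinical endpoint, with surrounding brain cut away from the GFP-positive tissue. No vector is named for the normal brains in the labels, and the strain, age, brain region and cells targeted by the virus were not given in the sources used here. Whether samples within a group came from different animals is not stated in the labels, and p-values therefore cover only the spread among these samples, which may be technical.

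Snail factors (Snai1, Snai2) and Zeb factors (Zeb1, Zeb2) are zinc finger proteins that bind E-box motifs and repress epithelial genes such as the cadherin gene Cdh1, while Twist1, a basic helix-loop-helix protein, and Prrx1, a paired-type homeodomain protein, promote mesenchymal traits. In human glioblastoma, Cebpb and Stat3 are known as regulators of the mesenchymal expression class, and Runx1, Bhlhe40 and Fosl2 belong to the same network. Zeb1 and Zeb2 are also expressed in normal neural cells. Cebpb and Runx1 are expressed in myeloid blood cells as well as in tumour cells.

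Levels are given as CPM, the fragment count scaled to library size, after TMM scaling, which corrects for differences in composition between libraries. Library totals ranged from 5490351 fragments in tumour 2 to 15564280 in tumour 4. With edgeR and a threshold of 0.05 on p-values adjusted by Benjamini-Hochberg over 14641 genes, 5 of the 9 tested factors were higher in glioblastoma, 0 were lower and 4 were not called. None was lower at an unadjusted p below 0.05 or with DESeq2 either. Snai1 did not pass the filter on low counts. Twist1, Runx1 and Snai2, with 9, 10 and 12 fragments over the brains, passed it through the tumours and could not have been called lower. The same holds for genes of the lists below with few fragments in the brains. Over all tested genes, 37.1% were called higher and 33.9% lower. Brain and tumour values did not overlap for 5 of the 9 tested factors, against 70.6% of all tested genes, nor for the untested Snai1, which rests on 2 fragments in the brains. In whole tissue, fewer cells of a type and less RNA per cell cannot be told apart.

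**Figure D1:**
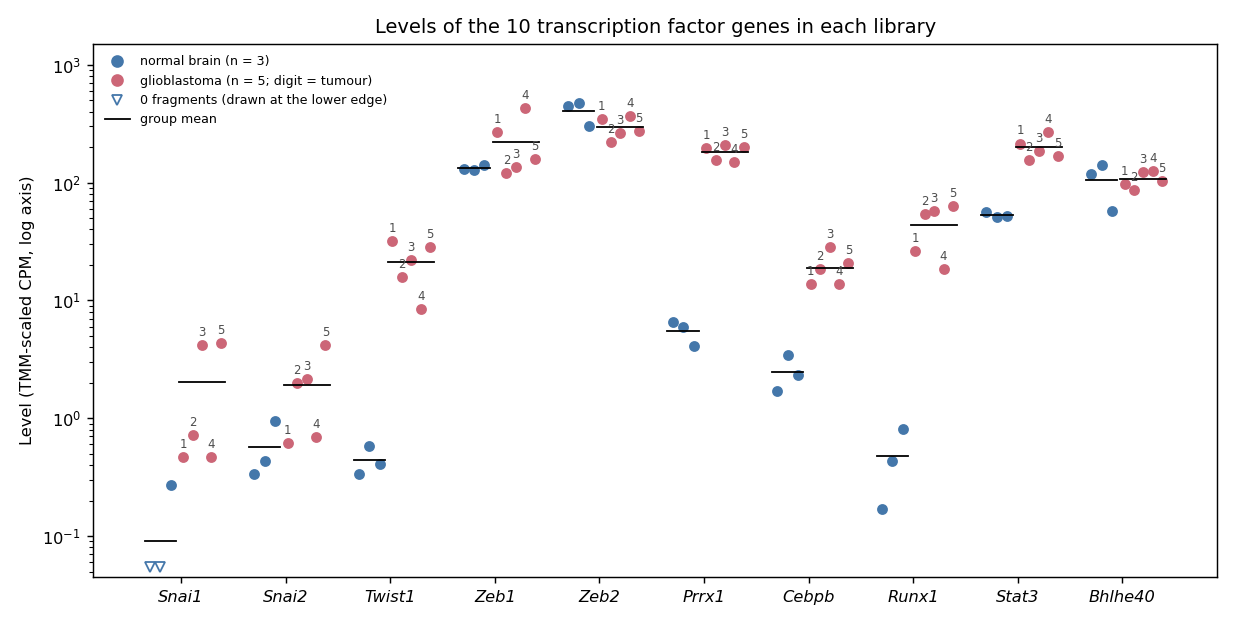
Level of each of the 10 factors in each library (TMM-scaled CPM, log axis), for 3 normal brains (blue) and 5 glioblastomas (red, digit giving the tumour); black lines are group means and open triangles stand for 0 fragments. All 5 tumours lie above all 3 brains for Snai1, Twist1, Prrx1, Cebpb, Runx1 and Stat3.

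The deposited table gives estimated fragment counts for single transcripts of Prrx1 and of Runx1. Shown first are sequences at the coding ends of Prrx1 and before the starts of Runx1. Prrx1 has 3 RefSeq accessions that share their first exons. NM_175686 carries an additional exon of 72 bases (chr1:163253977-163254048, GRCm38, minus strand, GENCODE transcript Prrx1-202) that brings in an early stop codon, so that its protein has 217 residues. NM_011127 (Prrx1-201) skips this exon, continues its reading frame into the last exon and codes for 245 residues, with the OAR motif at its end. NM_001025570 (Prrx1-204) ends in a longer form of the third exon and codes for 200 residues. This longer exon (chr1:163252866-163257942) also covers the bases of the short exon. NM_175686 ends at the same base as NM_011127 and so also holds its last exon, past the stop codon. Neither stretch shown is therefore found in a single accession alone. The coding ends of the first 2 are shown 5′ to 3′ with the stop codon in capitals, from chr1:163253994-163254048 and chr1:163248258-163248396 (GRCm38, minus strand).
Prrx1 NM_175686, short exon: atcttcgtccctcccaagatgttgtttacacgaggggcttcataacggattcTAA
Prrx1 NM_011127, last exon: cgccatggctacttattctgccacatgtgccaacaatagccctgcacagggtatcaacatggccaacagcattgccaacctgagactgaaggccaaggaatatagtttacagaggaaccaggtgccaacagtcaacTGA

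Runx1 is transcribed from a distal and a proximal start site. The 250 bases before each start, from the RefSeq promoter table (GRCm38.p6, minus strand), were searched on both strands for the E-box CAGGTG bound by Snail and Zeb factors and for the motifs TTCNNNGAA (STAT), TTGCNNAA (C/EBP), TGTGGT (Runx) and TGANTCA (AP-1). The window before the distal start (chr16:92826075-92826324) held 1 E-box, 136 bases before the start in that table and shown in capitals. GENCODE starts the distal transcript NM_001111022 at chr16:92826149, which is inside this window. The window before the proximal start (chr16:92697330-92697579) held none of the 5 motifs. In GENCODE, NM_009821 starts next to this window, at chr16:92697328, and NM_001111023 starts further downstream, at chr16:92696125. Of 32851 windows of the same length, 17.2% held the E-box, 7.02% the STAT, 9.56% the C/EBP, 14.0% the Runx and 6.75% the AP-1 motif. A match is a match of letters only.
Runx1 distal start: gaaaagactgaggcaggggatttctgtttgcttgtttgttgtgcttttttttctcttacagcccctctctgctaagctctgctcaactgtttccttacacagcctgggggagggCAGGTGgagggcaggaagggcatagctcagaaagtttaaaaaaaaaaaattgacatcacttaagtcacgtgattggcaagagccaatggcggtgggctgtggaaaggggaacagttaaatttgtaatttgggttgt
Runx1 proximal start: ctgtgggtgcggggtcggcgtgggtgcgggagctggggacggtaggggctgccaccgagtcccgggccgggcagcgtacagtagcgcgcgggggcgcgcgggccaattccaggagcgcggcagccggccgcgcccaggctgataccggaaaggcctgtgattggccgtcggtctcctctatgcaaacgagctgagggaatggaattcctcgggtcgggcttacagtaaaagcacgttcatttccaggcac

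Among the other factors with a window in that table, Snai1 had 1 E-box 126 bases before its start, written CACCTG on its own strand. None of the 5 motifs was found in the windows of Twist1, Prrx1, Cebpb or Stat3. Zeb2 has 4 listed starts. Windows of Zeb2 held a pair of AP-1 matches, 189 and 132 bases before 1 start, a STAT match 173 and 147 bases before a pair of overlapping starts and a C/EBP match 221 bases before another.

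Twist1 (NM_011658) was near the limit of detection in brain and present in every tumour. Brains 1 to 3 had 0.338, 0.577 and 0.409 CPM of Twist1, from 9 fragments in all, while tumours 1 to 5 had 31.6, 15.9, 22.2, 8.39 and 28.1 CPM. The groups did not overlap, and tumour 4 was the lowest tumour. Twist1 rose 46.2-fold, or by 5.53 ± 0.59 on the log2 scale (SE, 3 brains against 5 tumours; edgeR adjusted p = 4.9e-05). Because the brain level rests on few fragments, the ratio of the summed levels, 43.5, had a counting interval from 22.9 to 95.1, taken from the brain count alone.

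Prrx1 rose 32.9-fold and varied little among the tumours. Its levels were 6.60, 5.92 and 4.09 CPM in brains 1 to 3, against 197, 157, 207, 149 and 201 CPM in tumours 1 to 5. Every tumour was far above every brain, and the highest tumour was 1.39-fold above the lowest. On the log2 scale the change was 5.04 ± 0.24 (SE; edgeR adjusted p = 7.7e-07).

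The split of Prrx1 between its transcripts also differed between the groups. The accession with the short exon, NM_175686, took between 0 and 0.133% of the gene's fragments in the brains and between 58.8% and 67.1% in the tumours. The long form, NM_011127, took 73.1% to 75.9% in the brains and 12.5% to 21.8% in the tumours. NM_001025570 took 24.0% to 26.8% and 18.8% to 23.7%. The shares of the first 2 accessions did not overlap between the groups. In CPM, the long form was still higher in the tumours, at 25.9 to 32.4 against 3.10 to 4.82 in the brains. These shares are the authors' estimates from fragments that mostly fit several transcripts. Prrx1 had 30 to 41 fragments in each brain and 868 to 2553 in each tumour. NM_175686 and NM_011127 differ only by the 72-base exon and slightly at their 5′ ends. Only part of these fragments can tell the 2 apart, and how many was not counted. The shares were noticed after the values were seen, and were not tested.

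**Figure D2:**
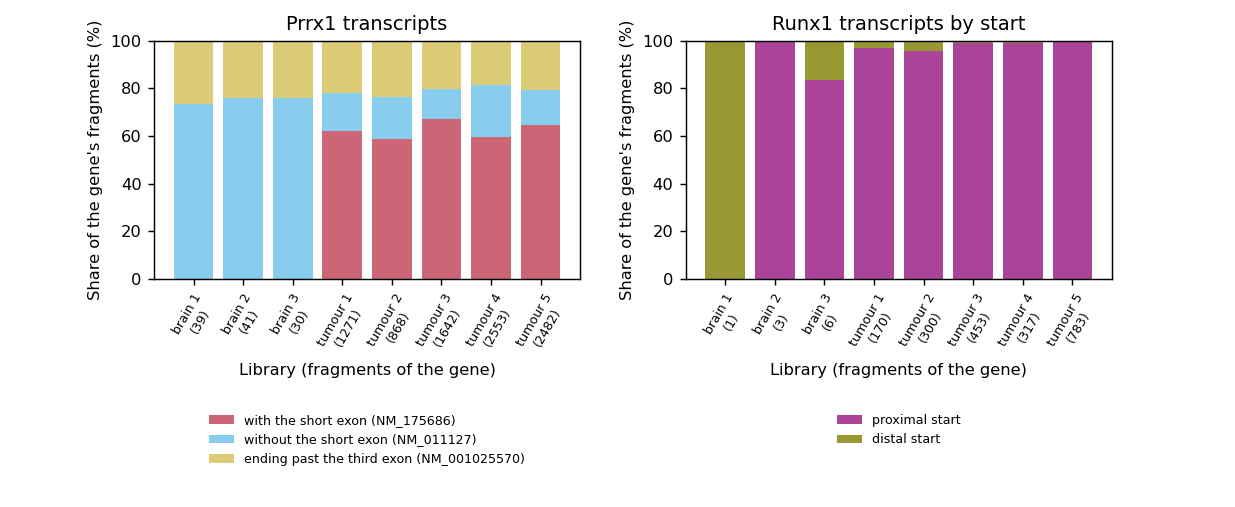
Estimated share of the fragments of Prrx1 (left, by accession) and Runx1 (right, by start site) in each library, with the number of fragments of the gene under each bar. The Prrx1 accession with the short exon is at most 0.133% in the brains and at least 58.8% in the tumours; in the brains Runx1 rests on 1 to 6 fragments.

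Snai1 (NM_011427) was low everywhere, with 2 fragments over the brains and 102 over the tumours. The brains held 0, 0 and 2 fragments, or 0, 0 and 0.273 CPM, and tumours 1 to 5 held 0.465, 0.722, 4.16, 0.466 and 4.36 CPM. Tumours 3 and 5 stood above the other tumours: their exact Poisson 95% intervals, 2.86 to 5.84 and 3.28 to 5.69 CPM, lay above those of tumours 1, 2 and 4, which reached at most 1.85 CPM. The ratio of summed levels was 20.8, with a counting interval from 5.76 to 172. With no filter on low counts, edgeR called Snai1 higher (adjusted p = 0.0232). In the same fit that call was lost without brain 1 (adjusted p = 0.0748) or without brain 2 (adjusted p = 0.079), and kept without brain 3 or any single tumour, with a highest adjusted p of 0.0451 without tumour 5. The log2 fold change was 4.24, and 7.21 without brain 3, the only brain with a fragment.

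Snai2 (NM_011415), the other Snail factor, did not pass the test. Snai2 stood at 0.338, 0.433 and 0.954 CPM in brains 1 to 3 and 0.620, 1.98, 2.14, 0.699 and 4.20 CPM in tumours 1 to 5. Tumours 1 and 4 lay within the range of the brains, and the other 3 lay above it. Its log2 fold change was 1.71 ± 0.77 (SE; 95% interval -0.04 to 3.46; edgeR adjusted p = 0.0732). Without tumour 1 or without tumour 4 Snai2 was called higher (edgeR adjusted p = 0.0438 and 0.0268).

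Zeb1 (NM_011546) was abundant in both tissues and varied widely between tumours. The brains held 131, 127 and 141 CPM of Zeb1 and tumours 1 to 5 held 267, 120, 136, 429 and 157 CPM. Tumours 1 and 4 were well above the brains, tumour 5 was slightly above them, and tumours 2 and 3 were not. Zeb1 did not pass the test (log2 fold change 0.74 ± 0.42, SE; 95% interval -0.21 to 1.69; edgeR adjusted p = 0.141), and its value was 0.37 without tumour 4.

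Zeb2 (NM_015753) had the highest level per transcript length of the 10 factors in brain. Brains 1 to 3 had 449, 473 and 301 CPM of Zeb2, compared with 348, 220, 262, 368 and 276 CPM for tumours 1 to 5. Brain 3 lay among the tumours, while brains 1 and 2 lay above all of them. Zeb2 did not pass the test, at a log2 fold change of -0.47 ± 0.22 (SE; 95% interval -0.96 to 0.02; edgeR adjusted p = 0.0804). Without brain 3 the value was -0.64, and without tumour 4 it was -0.55, and Zeb2 was called lower in both cases (edgeR adjusted p = 0.0347 and 0.0323).

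Stat3, the transcription factor activated by cytokines of the interleukin 6 family, rose 3.75-fold. Stat3 levels were 55.8, 50.6 and 52.5 CPM in the brains, and 215, 156, 186, 270 and 167 CPM in tumours 1 to 5. The brains were close together and the groups did not overlap. This was a change of 1.91 ± 0.20 on the log2 scale (SE; edgeR adjusted p = 4.9e-05). The split between its 3 accessions was erratic between replicates, with NM_213660 at 0.02%, 0.39% and 94.9% in the brains, and only their sum was used.

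Cebpb (NM_009883), a C/EBP family factor of inflammatory and mesenchymal programmes, rose 7.54-fold. Cebpb stood at 1.69, 3.46 and 2.32 CPM in brains 1 to 3 and at 13.6, 18.4, 28.4, 13.8 and 20.6 CPM in tumours 1 to 5. Every tumour lay above every brain, and the change on the log2 scale was 2.91 ± 0.36 (SE; edgeR adjusted p = 0.000118).

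Runx1, a DNA-binding subunit of core-binding factor and a regulator of blood cell development, had the largest fitted rise among the 9 tested factors. Runx1 levels in brains 1 to 3 were 0.169, 0.433 and 0.818 CPM, from 10 fragments in all, whereas tumours 1 to 5 had 26.4, 54.1, 57.1, 18.5 and 63.3 CPM. The groups did not overlap, and tumours 1 and 4 were below the other 3. Runx1 rose by 6.44 ± 0.67 on the log2 scale (SE; edgeR adjusted p = 4.3e-05), and the ratio of summed levels was 82.5, with a counting interval from 44.9 to 172. In the tumours, between 95.7% and 99.4% of the Runx1 fragments were assigned to the accessions with the proximal start, NM_001111023 and NM_009821, and between 0.570% and 4.30% to those with the distal start. These shares are also the authors' estimates. The brains held 1, 3 and 6 fragments, too few to compare the starts.

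Bhlhe40 (NM_011498), a basic helix-loop-helix repressor that responds to hypoxia and to the circadian clock, did not pass the test. Bhlhe40 levels were 118, 141 and 57.8 CPM in brains 1 to 3 and 97.1, 85.9, 123, 125 and 103 CPM across tumours 1 to 5. All 5 tumours lay within the range of the brains, of which brain 3 was the lowest. Its log2 fold change was 0.02 ± 0.27 (SE; 95% interval -0.60 to 0.64; edgeR adjusted p = 0.958), and -0.27 without brain 3.

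**Figure D3:**
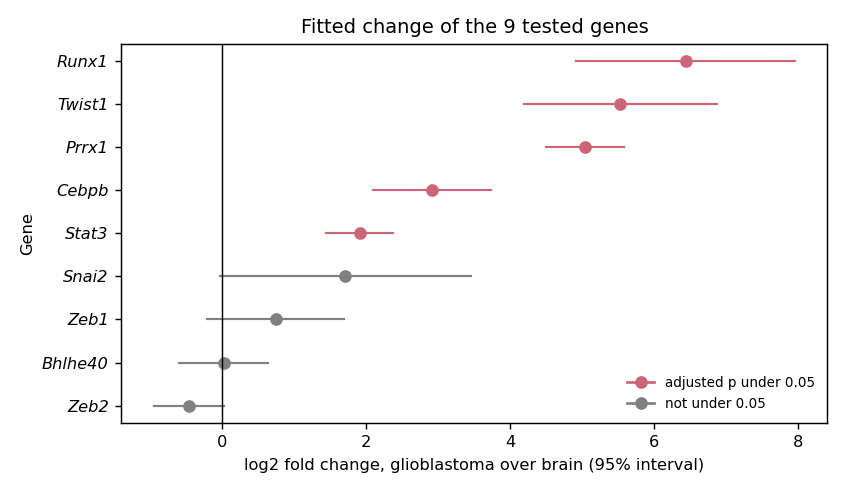
Log2 fold change of glioblastoma over brain for the 9 tested factors (points) with 95% intervals (lines); red marks an adjusted p below 0.05 (edgeR). The intervals of Runx1, Twist1, Prrx1, Cebpb and Stat3 lie above 0, and those of Snai2, Zeb1, Bhlhe40 and Zeb2 include 0.

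Levels were compared between genes per transcript length, as FPKM, which divides the scaled fragment count by length. In brain, Zeb2 (43.3 ± 9.83 FPKM; SD, n = 3) and Bhlhe40 (34.3 ± 14.0) were highest, followed by Zeb1 (22.5 ± 1.28) and Stat3 (11.7 ± 0.563). Ranges of Zeb2 and Bhlhe40, and of Bhlhe40 and Zeb1, overlapped. Cebpb (1.81 ± 0.658) and Prrx1 (1.17 ± 0.274) were next, with overlapping ranges. Snai2, Twist1, Runx1 and Snai1 each averaged between 0.0623 and 0.301 FPKM.

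In the tumours, 5 factors stood at similar levels: Stat3 at 43.6 ± 9.56 FPKM (SD, n = 5), Prrx1 at 37.7 ± 5.54, Zeb1 at 37.0 ± 21.1, Bhlhe40 at 34.4 ± 5.06 and Zeb2 at 31.0 ± 6.17. Each of these overlapped its neighbour in this order. Prrx1, which was the sixth of the 10 in brain, was the second in the tumours. Twist1 (14.0 ± 6.12 FPKM) and Cebpb (13.7 ± 4.40) followed with overlapping ranges, then Runx1 (6.10 ± 2.80), Snai1 (1.38 ± 1.37) and Snai2 (1.0 ± 0.744). The ranges of Runx1 and Snai1, and of Snai1 and Snai2, overlapped.

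The spread among tumours was described by the SD of log2 CPM over the 5 tumours, which had a median of 0.379 over all tested genes and of 0.154 over the brains. Snai1 (1.40) and Snai2 (1.0) had the widest spread, with few fragments behind them. Runx1 (0.78), Zeb1 (0.77) and Twist1 (0.76) were also above the median, and without tumour 4 these values were 0.57, 0.51 and 0.43. Cebpb was at 0.43. Stat3 (0.32), Zeb2 (0.31), Bhlhe40 (0.23) and Prrx1 (0.22) were below the median.

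Tumour 4 had the highest level of 4 factors, Zeb1, Zeb2, Stat3 and Bhlhe40, and the lowest of 3, Twist1, Prrx1 and Runx1. The 4 factors highest in tumour 4 were all lowest in tumour 2. Tumour 5 was highest for Snai1, Snai2 and Runx1, tumour 3 for Prrx1 and Cebpb, and tumour 1 for Twist1. Tumour 1 was the lowest for Snai1, Snai2 and Cebpb, but tumour 4 was close to it in each. Tumours 1 and 4 held 0.465 and 0.466 CPM of Snai1, 0.620 and 0.699 CPM of Snai2, and 13.6 and 13.8 CPM of Cebpb. Tumour 4 was the deepest and tumour 2 the shallowest library, and the part of depth in this order was not tested.

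Among the tumours, summed markers of other cells were high or low in the same tumours as several factors. All 12 macrophage and monocyte markers were higher in glioblastoma, and their summed level was 170 to 194 CPM in the brains and 1222, 2620, 2892, 1123 and 2527 CPM in tumours 1 to 5. Runx1 was likewise low in tumours 1 and 4 and high in the other 3, and Cebpb was lowest in tumours 1 and 4. Without Lyz2, the most abundant marker, tumours 1 and 4 were still the lowest, at 822 and 588 CPM against 1341 to 1635 CPM. Of the neutrophil markers, 6 of 6 tested were higher. All of these but Csf3r held at most 4 fragments over the brains, passed the filter through the tumours and could not have been called lower. Summed neutrophil markers were 2.54 to 3.41 CPM in the brains and 27.1, 41.7, 60.6, 17.7 and 30.6 CPM in tumours 1 to 5. Tumours 1 and 4 were the lowest here too, but without Mmp8 tumour 5 (22.5 CPM) was below tumour 1 (23.9 CPM). Mmp8 and Elane were at 0 in the brains and Camp was at 0 in the tumours. No marker of T and NK cells in the table passed the filter, and their sum was at most 0.409 CPM in the brains and 1.75 to 4.03 CPM in the tumours, with Cd3e, Cd3d, Cd2, Nkg7 and Gzma at 0 in the brains.

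Of the 9 oligodendrocyte and precursor markers, 1 was higher and 4 were lower, although the median log2 fold change was 0.54. Pdgfra is also on the fibroblast list and Cspg4 on the pericyte list. The 9 markers summed to 5353, 2838 and 2830 CPM in the brains and 1416, 509, 447, 2445 and 561 CPM in tumours 1 to 5. Among the tumours, 1 and 4 had the highest sum and also the highest Zeb1 and Stat3. Every tumour was below every brain for this sum, which was not so for Zeb1 or Stat3. Without Pdgfra, tumours 1 and 4 were still the highest, at 625 and 1107 CPM against 202 to 376 CPM in the other 3. Of the 8 pericyte and smooth muscle markers, 4 were higher and 1 was lower, with sums of 109 to 126 CPM in the brains and 328, 340, 834, 241 and 601 CPM in the tumours. Tumours 3 and 5, which had the highest Snai1, also had the highest sums, but 657 CPM of the sum in tumour 3 came from Acta2 alone. Over the other 7 markers the sums were 259, 272, 176, 228 and 395 CPM in tumours 1 to 5, with tumour 3 the lowest. Fibroblast markers, 7 of 8 of which were higher, summed to 123 to 203 CPM in the brains and 1517, 579, 727, 1529 and 1828 CPM in tumours 1 to 5. Pdgfra made up 1338 CPM of the sum in tumour 4 and 790 CPM of that in tumour 1. Without Pdgfra the sums were 727, 446, 486, 192 and 1469 CPM, and tumour 4 was the lowest, as it was for Twist1 and Prrx1. Tumours 1 and 5 were then the highest, as for Twist1.

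For the remaining cell types, 7 of 8 endothelial markers were higher, with sums of 105 to 122 CPM in the brains and 257 to 493 CPM in the tumours. Of 8 microglia markers, 4 were higher and 3 lower, with sums of 336 to 361 and 383 to 563 CPM. The tumours with the highest microglia sums were tumours 1 and 4, at 495 and 563 CPM, as for the oligodendrocyte and precursor markers. Among 7 astrocyte markers 4 were lower, with sums of 5624 to 6139 and 950 to 2658 CPM. Here too tumours 1 and 4 were the highest tumours, at 1503 and 2658 CPM. Among 7 neuron markers 6 were lower, with sums of 6699 to 7856 and 441 to 601 CPM. Without Nefl, the most abundant in the tumours, the sums were 231, 147, 159, 357 and 160 CPM in tumours 1 to 5. Tumours 1 and 4 were then the highest. The part of any of these cell types in the levels of the 10 factors was not tested.

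**Figure D4:**
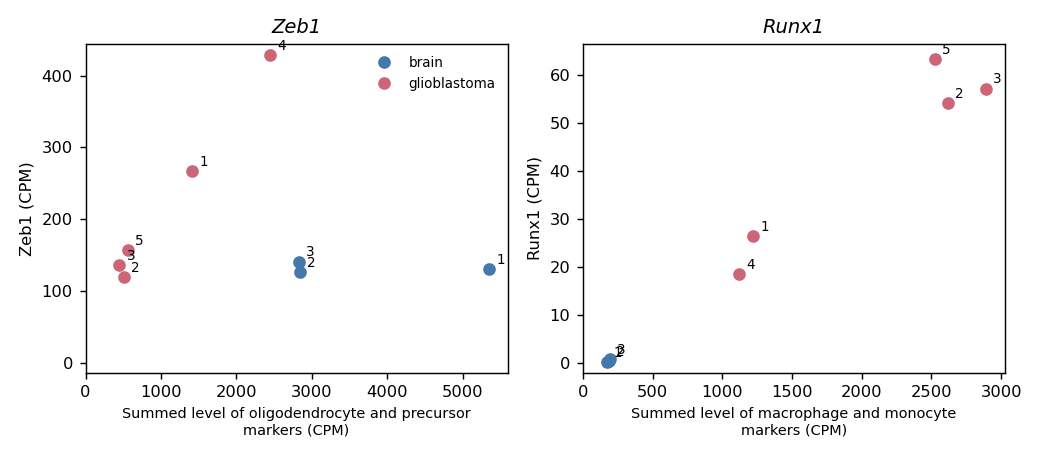
Level of Zeb1 (left) and Runx1 (right; vertical axes, CPM) beside the summed level of oligodendrocyte and precursor markers or of macrophage and monocyte markers (horizontal axes, CPM) in 3 brains (blue) and 5 glioblastomas (red); digits give the sample within its group. Among the tumours, 1 and 4 are high for Zeb1 and the oligodendrocyte and precursor markers and low for Runx1 and the macrophage and monocyte markers. Sums of astrocyte and of microglia markers, not drawn, were also highest in tumours 1 and 4, as were those of neuron markers without Nefl. Sums of neutrophil markers and of the mesenchymal genes described below, not drawn, were also lowest in tumours 1 and 4. For the neutrophil markers this did not hold without Mmp8.

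Among 16 relatives and partners of the epithelial-mesenchymal factors, 13 were tested, 9 were higher and 2 lower, with a median log2 fold change of 2.06 against 0.06 over all tested genes. Twist2, the paralogue of Twist1, rose: its level was 0.527 ± 0.349 CPM in the brains (SD, n = 3) and 9.26 ± 4.56 CPM in the tumours (SD, n = 5). Prrx2, the paralogue of Prrx1, rose from 0.447 ± 0.139 to 3.10 ± 1.28 CPM. Snai3 had 1 fragment over all brains and 36 over all tumours, a ratio of 14.7 with a counting interval from 2.64 to 580. Of the E proteins that pair with Twist1, Tcf3 rose (log2 fold change 2.06 ± 0.21, SE), Tcf12 rose (2.78 ± 0.19), and Tcf4, which was abundant in brain, fell (-0.82 ± 0.22). Sox4, an inducer of the transition, rose by 3.95 ± 0.14 and Id4, an inhibitor of helix-loop-helix proteins, fell by 1.87 ± 0.34 on the log2 scale.

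Of 14 corepressors and regulators of the stability of Snail and Zeb proteins, 6 were higher and 4 lower (median log2 fold change 0.38). The histone deacetylase gene Hdac1 rose by 2.24 ± 0.24 (SE) on the log2 scale and the Polycomb methyltransferase gene Ezh2 by 1.82 ± 0.23. Gsk3b, a kinase that marks Snai1 for degradation, had a log2 fold change of -1.90 ± 0.18, and Btrc, the ubiquitin ligase subunit that recognises the marked protein, of -1.98 ± 0.40. Of the Zeb corepressors, Ctbp2 rose (1.40 ± 0.15) and Ctbp1 fell (-0.40 ± 0.13; edgeR adjusted p = 0.0212, a call lost in 5 of 16 alternatives: library size and upper quartile scaling, and without brain 1, brain 2 or tumour 1). Kdm1a was at 0.25 ± 0.13 (edgeR adjusted p = 0.112) and was called higher in 3 of 16 alternatives.

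Epithelial genes known to be repressed by Snail and Zeb factors were mostly too low to test. Of 20, 8 passed the filter, and 4 of them were higher and 4 lower. Cdh1, the classic target, was higher, at 0.738 ± 1.13 CPM in brain and 4.69 ± 0.692 CPM in the tumours (log2 fold change 2.59 ± 0.83, SE; edgeR adjusted p = 0.0208, and 0.0744 without brain 1). Brain 3 held most of the Cdh1 in brain, at 2.04 CPM against 0.169 and 0, and without it the log2 fold change was 5.67. The keratin gene Krt18 had a log2 fold change of 4.70 ± 1.40 (edgeR adjusted p = 0.0148), and the call was lost without brain 2 or brain 3. The groups overlapped, with tumour 4 at 1.05 CPM and brain 1 at 3.55 CPM, and the log2 fold change of Krt18 was 6.40 without brain 1. Krt19 had 0 fragments over all brains and 0.620, 4.51, 11.3, 0.0582 and 2.26 CPM in tumours 1 to 5, so that tumour 3 was far above the rest. Pooled over the tumours, Krt19 was 20.1-fold above a floor of 3 fragments over the brains, with a counting interval from 16.4 upward. This pooled ratio does not hold for tumour 4. Its edgeR call (adjusted p = 0.0367) was lost without any single brain and with limma on log2(FPKM + 1), where the adjusted p was 0.0576. Ovol2, a repressor of the transition, fell by 4.61 ± 0.76 on the log2 scale, and Cgn, a tight junction gene, by 3.04 ± 0.56.

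Of 22 mesenchymal genes, 19 were higher and 1 was lower (median log2 fold change 4.72). Col1a1, Col1a2, Dcn, Lum and Fap are also on the fibroblast list, and Acta2 and Tagln on the pericyte and smooth muscle list. These lists are therefore not separate observations. The mesenchymal genes summed to 10358, 12145, 13714, 8336 and 14301 CPM in tumours 1 to 5, with tumours 1 and 4 the lowest. Vim, the intermediate filament vimentin, rose from 46.0 ± 5.45 to 4084 ± 395 CPM, and Fn1, fibronectin, from 22.9 ± 10.5 to 734 ± 380 CPM. Col3a1, a fibrillar collagen, rose by 7.56 ± 1.10 (SE) on the log2 scale. Cdh2, N-cadherin, rose by 0.87 ± 0.19. The gene that fell was Thy1, a surface protein of neurons as well as of fibroblasts, by 3.19 ± 0.39 on the log2 scale.

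Among 14 other regulators of the mesenchymal glioblastoma class, 13 were higher and 1 was lower (median log2 fold change 2.44). Fosl1, an AP-1 subunit, had 1 fragment over all brains and 800 over all tumours, a ratio of 326 with a counting interval from 58.6 to 12888. Maff, a small Maf factor, rose by 6.67 ± 0.36 (SE) on the log2 scale. Fosl2 was called higher (0.93 ± 0.29; edgeR adjusted p = 0.0171), a call lost without brain 1 or brain 3. Zbtb18, a repressor of mesenchymal genes, was the gene that fell, from 532 ± 53.7 to 66.2 ± 6.17 CPM.

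Of 11 relatives and partners of Cebpb, Runx1 and Bhlhe40, 6 were higher and 4 lower (median log2 fold change 0.60). Cebpd rose by 2.94 ± 0.44 (SE) and Cebpa by 1.59 ± 0.30 on the log2 scale. Cbfb, the partner subunit of Runx proteins, rose by 2.09 ± 0.18. Runx3 had 0 fragments over all brains and 84 over all tumours. This was 11.4-fold above the floor of 3 fragments over the brains, with a counting interval from 9.29 upward. Runx2 was at 7.07 ± 1.14 CPM in brain and 10.7 ± 3.73 CPM in the tumours, which did not pass the test (0.60 ± 0.33; edgeR adjusted p = 0.139), although it did without tumour 4, and the value was -0.060 with limma on log2(FPKM + 1). The corepressor genes Cbfa2t3 and Runx1t1, known from fusions with Runx1 in leukaemia, had log2 fold changes of -3.93 ± 0.34 and -3.84 ± 0.23, and Bhlhe41, the paralogue of Bhlhe40, of -0.86 ± 0.24.

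Genes that act upstream and downstream of Stat3 were also mostly higher. All 6 tested ligand genes of 7 were higher. Among them, Clcf1, Il6, Osm and Lif held 3, 3, 5 and 9 fragments over the brains. These passed the filter through the tumours and could not have been called lower. Clcf1 had 3 fragments over all brains and 1300 over all tumours, a ratio of 177 with a counting interval from 60.5 to 857, and Il6 had 3 and 351, a ratio of 47.7 with an interval from 16.3 to 231. Lif rose by 5.84 ± 0.51 (SE) and Osm by 4.06 ± 0.69 on the log2 scale.

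Of 10 receptor and kinase genes of the Stat3 pathway, 6 were higher and 2 lower (median log2 fold change 0.81). Il6st, the shared receptor subunit gp130, rose by 1.04 ± 0.12 (SE), the oncostatin M receptor gene Osmr by 3.24 ± 0.27 and Il10ra by 2.31 ± 0.24 on the log2 scale. Lifr had a log2 fold change of -2.04 ± 0.12 and Cntfr of -2.53 ± 0.47, the latter with fragments split with another transcript in 7 libraries. The kinase gene Jak2 rose by 0.65 ± 0.12, and Jak1 was at -0.29 ± 0.12 (edgeR adjusted p = 0.0555). Jak1 did not overlap between the groups and was called lower in 5 of 16 alternatives, among them DESeq2 (adjusted p = 0.038). Of 12 inhibitors and targets of Stat3, 11 were higher and 0 lower (median log2 fold change 3.57). Socs3, a feedback inhibitor, rose from 1.95 ± 0.677 to 89.1 ± 10.1 CPM. Bcl3, with 0 fragments over all brains, was 22.3-fold above a floor of 3 fragments, with a counting interval from 18.1 upward.

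The genes whose profile over the 8 libraries was most like that of each factor were found by the root mean square difference of log2 CPM, after each gene's own mean was taken away, among 12452 genes. A smaller value means a closer profile. Nearest were Col4a2 (0.472) and Col1a1 (0.496) for Snai1, of which Col1a1 is also a fibroblast marker, Inhbb (0.366) and Pla2g7 (0.414) for Snai2, and Ltbp1 (0.190) and Htr2b (0.215) for Twist1. For Zeb1 they were Me1 (0.124) and Spry2 (0.139), and for Zeb2 they were Zfp113 (0.116) and Rbmx (0.125). Prrx1 was closest to Tnfrsf10b (0.110) and Aspm (0.224), and Cebpb to Hcls1 (0.116) and Egln3 (0.179). Runx1 was closest to Itprip (0.239) and Ifi207 (0.255), Stat3 to Ddit3 (0.110) and Tmpo (0.123), and Bhlhe40 to Csl (0.220) and Dusp1 (0.226). The Snail genes had the most distant neighbours of the 10, and their fragment counts were the lowest.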

How the data were processed

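RNA from 3 normal brains and 5 glioblastomas was isolated with a column kit and DNase and made into TruSeq RNA libraries, per the labels' protocols. STAR 2.3.0e, Cuffdiff 2.1.1 and mm9 are named in the submitters' processing notes. The notes give no roles, and the annotation release, strand setting and filters were not given in these sources. The authors deposited estimated counts of fragments for 30967 RefSeq accessions per library, per the file headers, and FPKM values scaled by the authors. Gene symbols came from RefSeq for 30474 accessions and from GENCODE for 178, and 315 kept their accession. Estimated counts were summed per gene and rounded: for genes with several accessions 97.8% of the sums, and all sums of the 10 factors, were whole within 0.01.

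The test was edgeR 4.0.16 (TMM factors, default filter on low counts, robust quasi-likelihood F test, Benjamini-Hochberg adjustment, R 4.3.3) and was tested on simulated data. Standard errors came from the F statistic. Alternatives were DESeq2 1.42.0, other scalings and filters, limma 3.58.1 on log2(FPKM + 1) and log2(FPKM + 0.1), and each library left out. Added after seeing the data were Snai1 without a filter and with each library left out, and marker sums without the most abundant marker. The log2 CPM values used a prior count of 2. Counting intervals are exact Poisson 95% intervals and, like floors of 3 fragments, cover counting error only. For ratios they were taken from the brain count alone, with the tumour count held fixed, so counting error of the tumours is left out. All replicate pairs differed by more than sampling noise, with a lowest chi-square of 4.96 for each degree of freedom.

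The factors and lists were chosen with earlier results of these data known. Named are the 10 factors; from each pathway list the 2 called genes with the largest change in each direction, and paralogues, partners, ligands and receptors of the factors; and the 2 genes of most similar profile with a mean of at least 5 CPM. A gene that this rule named is not reported here. Sequences are from RefSeq and GENCODE on GRCm38, not the authors' build. RefSeq windows were found for 7 of the 10 factors.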

Additional observations from a re-analysis of the deposited data

How the results depend on the processing

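Twist1, Prrx1, Cebpb, Runx1 and Stat3 were called higher under all 16 alternatives run, and Zeb1 and Bhlhe40 under none. The count of factors called lower was 1 instead of 0 without brain 3 and without tumour 4, in both cases Zeb2. With 1 brain left out, the log2 fold change of Snai1 ranged from 3.69 to 7.21; with the default filter Snai1 was not tested when a tumour was left out. Without any filter, a setting chosen after seeing the data, leaving out each of the 8 libraries gave 3.72 to 7.21, with 3.79 without brain 1 and 3.72 without brain 2, where its call was lost. With 1 library left out, Snai2 ranged from 1.46 to 2.29, Zeb2 from -0.64 to -0.35 and Bhlhe40 from -0.27 to 0.28. Bhlhe40 was below 0 without brain 3 (-0.27), without tumour 3 (-0.03) and without tumour 4 (-0.03), and never called. Snai2 was not tested without tumour 2, 3 or 5 or with a minimum of 5 CPM in 3 libraries, since it then failed the filter on low counts. Runx2 was at -0.060 and -0.11 with limma on log2(FPKM + 1) and log2(FPKM + 0.1). The cause of these shifts was not tested. Scaling by library size or by upper quartile moved the median log2 fold change of all genes from 0.06 to 0.20 and 0.18. Folds on the log2(FPKM + 1) scale understate low genes, as for Runx1 (2.62). The brain levels of Snai1, Snai2, Twist1 and Runx1 rest on 2, 12, 9 and 10 fragments, so depth limits their folds. No paired analysis was possible because the labels give no replicate number that joins a brain to a tumour.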
